A study of Mus musculus with 12 samples.

Results

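The proteasome genes were the protein-coding genes of the count table whose symbol begins with Psma, Psmb, Psmc, Psmd, Psme, Psmf or Psmg followed by a digit. The rule took 50 of 55487 genes, and 49 of them had enough reads to be tested among 16908 genes. Psmb11, a core subunit gene of the thymus, was at 0 in every library and was not tested. Psmc3ip met the rule by its name alone, because it encodes a meiotic recombination factor and no subunit.

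The libraries came from microglia, the resident immune cells of the brain, of mice at postnatal day 13. Every mouse was of strain YARG, in which a yellow fluorescent protein is read from the Arg1 locus downstream of the arginase-1 stop codon, so the sort followed the reporter and not the enzyme. Cells of the basal forebrain and striatum that carried CX3CR1 and lacked CD206 were sorted into reporter-positive (ARG1+) and reporter-negative (ARG1-) microglia, each library pooling the tissue of several mice. The study describes both populations as sorted from such pools, of 3 litters per sex, so ARG1+ and ARG1- libraries may share mice, and the labels do not say which. There were 3 libraries for each of ARG1- females, ARG1+ females, ARG1- males and ARG1+ males, 6 in each population. Whether ARG1+ and ARG1- microglia differ in their transcripts, in each sex, was the question of the comparison.

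The libraries held 28356659 to 60625170 counts assigned to genes. Arg1 itself had 52 counts in ARG1+ female replicate 15, 2 in ARG1+ female replicate 8 and 0 in the other 10 libraries, so its transcript did not check the population labels. The study reports that ARG1 and reporter protein occur together in cells of these mice. It also reports quantitative PCR on sorted cells in which Arg1 transcript was restricted to the reporter-positive population. Over all genes tested 9.42% were lower and 6.44% higher in ARG1+ libraries, the shares to set beside the marker counts here. Of 10 microglial marker genes 7 were lower and 1 was higher (Sall1, log2 fold change 0.43). Cx3cr1 (0.08) and Csf1r (0.05) were not called. The summed level of the 10 genes was 48507 to 64347 CPM, the reads of a gene scaled to a common library total, in ARG1- and 38179 to 49033 CPM in ARG1+ libraries. Neuronal markers summed to 2.32 to 13.1 CPM over the 12 libraries, oligodendrocyte markers to 57.1 to 175 CPM, and astrocyte markers to 176 to 224 CPM in ARG1- and 130 to 151 CPM in ARG1+ libraries. Of the tested genes of these 3 lists 0 of 5, 0 of 7 and 1 of 7 were lower. Border macrophage markers summed to 106 to 237 CPM over the 12 libraries (0 of 5 called), monocyte markers to 5.05 to 22.9 CPM (1 of 4 lower), endothelial markers to 29.8 to 83.6 CPM (0 of 4 called) and cell cycle genes to 314 to 537 CPM (2 of 6 lower). The part of these shifts in the results was not tested.

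The proteasome is the protease that degrades proteins tagged with ubiquitin. Its core particle is a barrel of alpha and beta rings, with the proteolytic sites on the inner face of the beta rings, and a regulatory particle of a base and a lid caps the barrel, binds the tagged protein, removes the ubiquitin and feeds the unfolded chain inside. Interferon exchanges the 3 catalytic beta subunits for those of the immunoproteasome, which cuts peptides better suited to MHC class I, and microglia, like other macrophages, make both forms.

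Most genes of the complex had lower transcript levels in the ARG1+ population. At an adjusted p under 0.05 (edgeR quasi-likelihood test with sex as a term, Benjamini-Hochberg adjustment over all genes tested) 35 of the 49 genes fell and 0 rose, against 9.42% of all genes lower and 6.44% higher. The fitted value was below 0 for 45 of the 49 (46.4% of all genes), and the median log2 fold change was -0.64 over the 49 genes and 0.06 over all genes. In 26 genes all 6 ARG1+ libraries lay below all 6 ARG1- libraries, which held for 6.56% of all genes. Summed over the genes, the level was 5342 CPM ± 408 (SD, n = 6) in ARG1- and 3545 ± 318 (SD, n = 6) in ARG1+ libraries, with ranges of 4735 to 5883 and 3237 to 4133 that did not overlap. In these bulk libraries fewer transcripts per cell and fewer cells carrying them cannot be told apart.

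**Figure D1:**
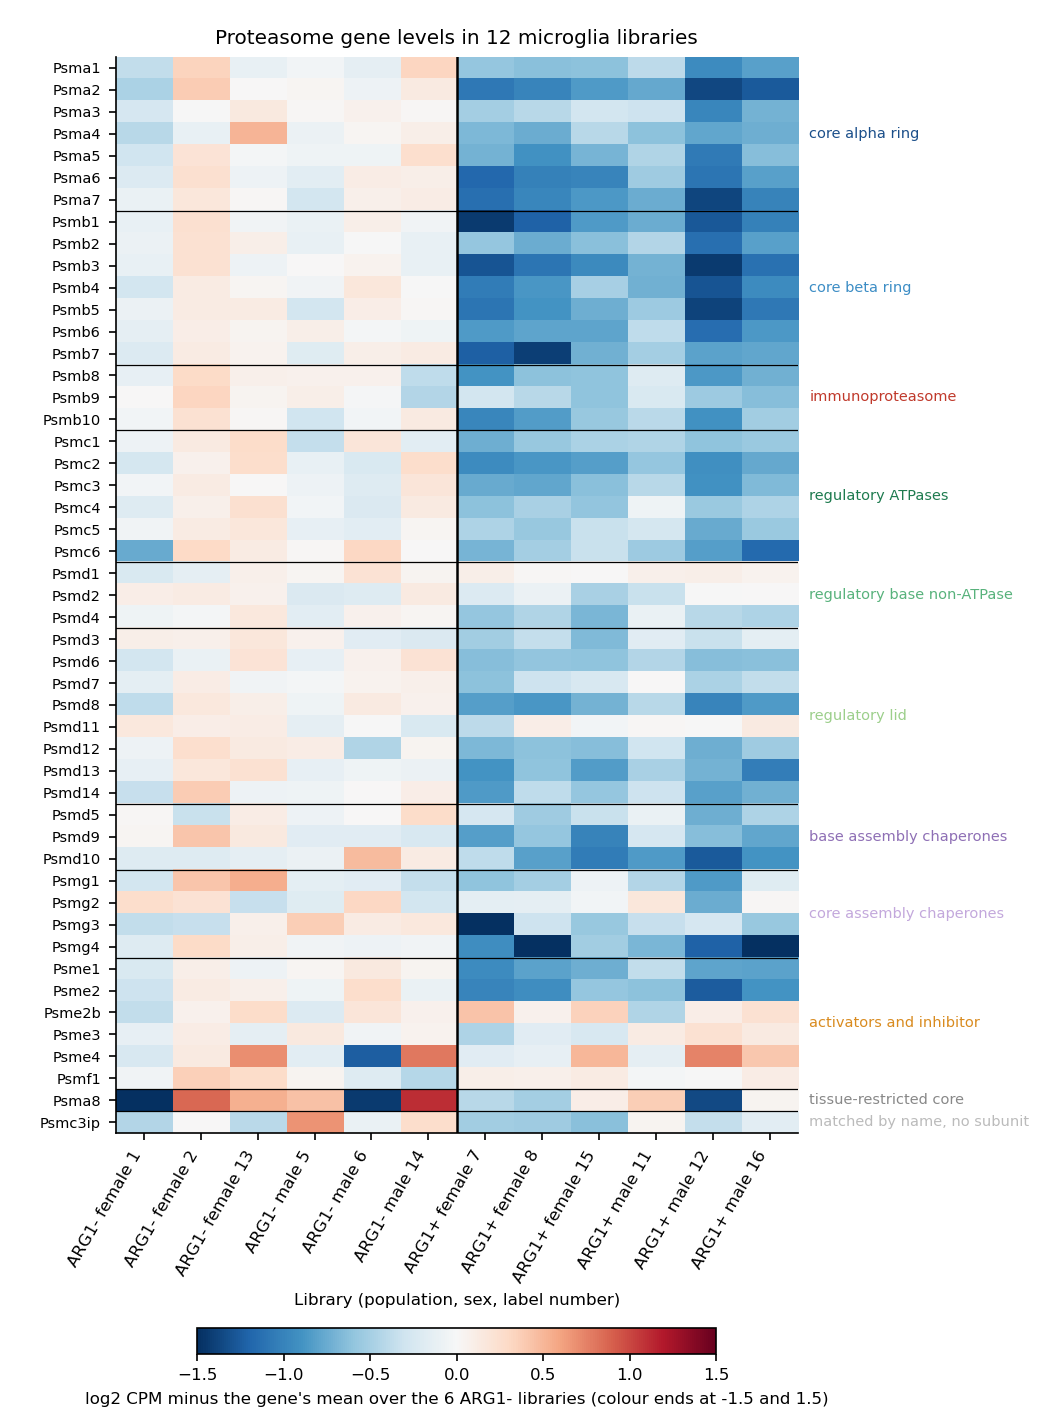
Log2 CPM of the 49 tested genes (rows, by subcomplex) in the 12 libraries (columns), minus the mean of the 6 ARG1- libraries, with colour ending at -1.5 and 1.5. The ARG1+ columns are blue over most of the core, ATPase and lid rows, least in ARG1+ male replicate 11 and most in ARG1+ male replicate 12, while Psmd1, Psme3 and Psmf1 show little colour.

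Transcript length moved with the same contrast. Of protein-coding genes whose longest transcript had up to 1000 bases, 42.9% were lower in ARG1+ microglia, and the share was 25.8% over 1000 and up to 2000 bases, 9.89% over 2000 and up to 4000 bases, and 2.65% beyond. Proteasome transcripts are mostly short, and in the same bands 5 of 6, 21 of 26, 9 of 15 and 0 of 2 were lower. Their median log2 fold change was -0.83, -0.68, -0.46 and -0.15 in these bands, beside -0.70, -0.36, -0.04 and 0.30 for all protein-coding genes. With each library's trend on longest transcript length and GC content removed over all genes, 34 proteasome genes were lower (9.08% of all genes). That fit left part of the length trend in place. Protein-coding genes of up to 1000 bases kept a median log2 fold change of -0.47, with 218 of 638 lower. Those over 1000 and up to 2000 bases kept -0.19, with 403 of 2128 lower. With the trend fitted on well-counted protein-coding genes, 17 proteasome genes were lower and 1 was higher (5.87% and 5.39% of all genes). This alternative was chosen after seeing the data. The median over the proteasome genes was then -0.24, and these length bands had medians of -0.023 and 0.007. The part of transcript length in the falls was not tested beyond these fits.

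**Figure D2:**
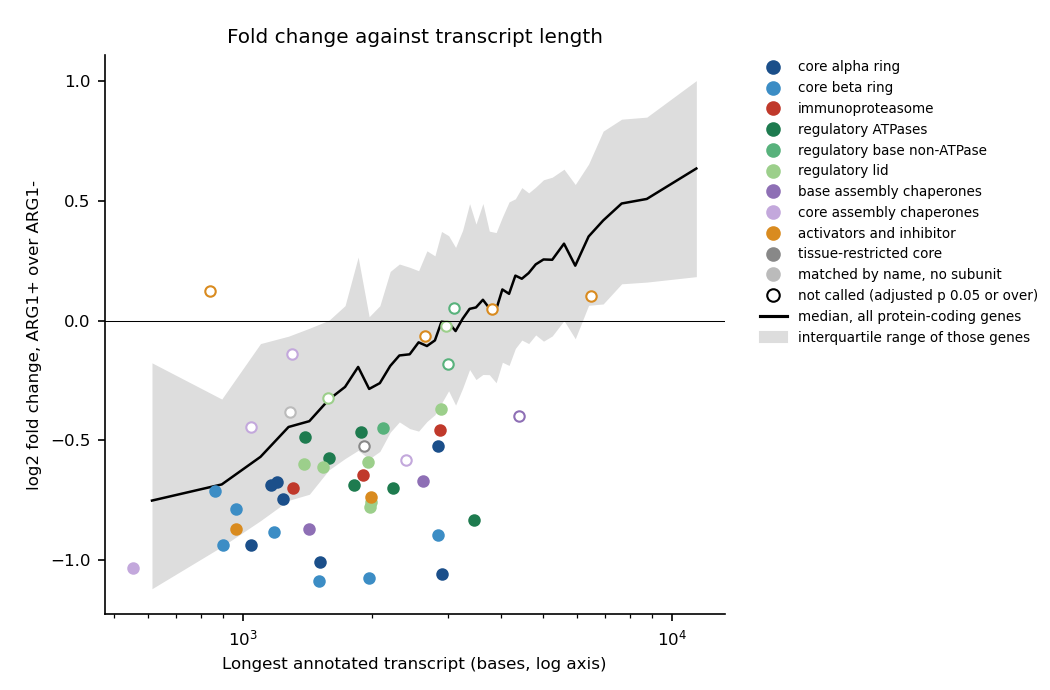
Log2 fold change (ARG1+ over ARG1-) of each tested proteasome gene against its longest annotated transcript in bases on a log axis, coloured by subcomplex, filled where the adjusted p was under 0.05. The line and band are the median and interquartile range of all protein-coding genes in bins of length; the line climbs with length, and the core genes Psma2, Psmb1 and Psmb3 lie well below it.

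The 7 alpha ring genes, whose products form the gated outer rings of the core, all fell, by a median of 0.75 on the log2 scale. Psma7 had the smallest p of all proteasome genes. It ran from 130 to 177 CPM (median 163) in ARG1- and from 60.7 to 94.3 CPM (median 79.5) in ARG1+ libraries, a log2 fold change of -1.01 (adjusted p = 0.000578, SE 0.12). Every ARG1+ library thus lay under the lowest ARG1- library. Psma2 had 106 to 193 CPM (median 149) in ARG1- and 57.3 to 87.0 CPM (median 72.1) in ARG1+ libraries, a log2 fold change of -1.06 (adjusted p = 0.00106, SE 0.15). Psma6 had 132 to 180 CPM (median 153) and 67.3 to 105 CPM (median 76.04), a log2 fold change of -0.94 (adjusted p = 0.000769, SE 0.12). Neither gene overlapped between the populations. Psma1, the alpha gene with the most reads, had 251 to 411 CPM (median 309) in ARG1- and 169 to 248 CPM (median 212) in ARG1+ libraries, close to touching, with a log2 fold change of -0.67 (adjusted p = 0.00697, SE 0.14). The other alpha genes, Psma3, Psma4 and Psma5, fell by 0.52 to 0.75 on the log2 scale, and Psma4 was the only alpha gene whose libraries overlapped.

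The 7 beta ring genes fell as well, by a median of 0.90, and in all 7 the populations did not overlap. Psmb1, a structural subunit, had 152 to 195 CPM (median 158) in ARG1- and 60.96 to 98.1 CPM (median 76.2) in ARG1+ libraries, a log2 fold change of -1.07 (adjusted p = 0.000578, SE 0.13). Psmb3, another structural subunit, showed the largest fitted fall of the proteasome genes in this fit. Its level was 72.4 to 91.8 CPM (median 76.3) in ARG1- and 29.0 to 47.9 CPM (median 36.4) in ARG1+ libraries, a log2 fold change of -1.09 (adjusted p = 0.00062, SE 0.13). Psmb4, also structural, had 66.5 to 90.3 CPM (median 81.0) and 32.6 to 57.0 CPM (median 42.8), a log2 fold change of -0.88 (adjusted p = 0.00178, SE 0.14). Psmb2 fell by 0.71 on the log2 scale.

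The 3 standard catalytic subunits are Psmb5 (chymotrypsin-like), Psmb6 (caspase-like) and Psmb7 (trypsin-like). Psmb5 had 48.4 to 64.2 CPM (median 61.3) in ARG1- and 22.5 to 40.4 CPM (median 29.8) in ARG1+ libraries, a log2 fold change of -0.94 (adjusted p = 0.00184, SE 0.15). Psmb6, the beta gene with the most reads, had 180 to 212 CPM (median 199) and 89.3 to 152 CPM (median 112), a log2 fold change of -0.79 (adjusted p = 0.0013, SE 0.12). Psmb7 had 46.9 to 58.6 CPM (median 56.5) and 20.2 to 37.8 CPM (median 31.2), a log2 fold change of -0.90 (adjusted p = 0.00242, SE 0.15). In each of the 3 genes the highest ARG1+ library was below the lowest ARG1- library. With the length and GC trend of well-counted genes removed, 7 of the 14 core genes stayed lower, namely Psma2, Psma7, Psmb1, Psmb3, Psmb4, Psmb5 and Psmb7, and Psmb2 moved to 0.02.

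Promoters of 4 genes are shown because the core genes fell together and because Psmb5 and Psmb8 encode the standard and the interferon-induced form of the same catalytic position. Each line gives the 250 bases before the RefSeq start (GRCm38.p6), and capitals mark every match, on either strand, to CCAAT (the NF-Y box), to TGACNNNGC (the antioxidant response element core) or to the interferon-stimulated response element, searched as GAAA, any 2 bases and GAAA.
Psma6 (chr12:55383972-55384221, plus strand): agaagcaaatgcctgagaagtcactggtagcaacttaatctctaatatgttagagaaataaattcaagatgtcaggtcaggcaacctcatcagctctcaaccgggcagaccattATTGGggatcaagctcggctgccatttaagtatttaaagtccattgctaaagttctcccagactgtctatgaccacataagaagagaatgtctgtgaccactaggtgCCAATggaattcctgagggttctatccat
Psmb3 (chr11:97703184-97703433, plus strand): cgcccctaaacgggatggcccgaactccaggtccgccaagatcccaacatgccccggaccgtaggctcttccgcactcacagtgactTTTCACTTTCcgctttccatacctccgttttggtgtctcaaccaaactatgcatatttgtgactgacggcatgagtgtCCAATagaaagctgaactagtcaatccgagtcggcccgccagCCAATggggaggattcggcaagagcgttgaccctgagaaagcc
Psmb5 (chr14:54617996-54618245, minus strand): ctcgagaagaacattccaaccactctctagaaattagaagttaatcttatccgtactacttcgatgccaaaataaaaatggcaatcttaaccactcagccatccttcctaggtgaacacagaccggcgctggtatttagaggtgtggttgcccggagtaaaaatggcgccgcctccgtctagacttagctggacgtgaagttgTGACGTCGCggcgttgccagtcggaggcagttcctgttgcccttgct
Psmb8 (chr17:34197945-34198194, plus strand): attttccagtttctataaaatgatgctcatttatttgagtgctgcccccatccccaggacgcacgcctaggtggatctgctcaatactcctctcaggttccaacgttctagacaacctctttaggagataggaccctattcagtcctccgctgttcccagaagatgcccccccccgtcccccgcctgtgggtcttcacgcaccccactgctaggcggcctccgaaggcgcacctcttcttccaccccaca

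Over windows from 250 bases before to 50 bases after the start, RefSeq gave a promoter for 42 of the 50 genes. CCAAT occurred in 15 of them (35.7%), against 37.9% of 27025 genes, and in 6 of the 11 core genes with a window (54.5%). TGACNNNGC occurred in 6 of the 42 (14.3%, against 12.5%), among them Psmb5. The interferon-stimulated response element occurred in 5, namely Psmb3, Psmd4, Psmd9, Psme1 and Psmg4 (11.9%, against 3.49%), and in none of the 3 immunoproteasome genes. The Psmb8 stretch printed above begins at base 34197945, inside the gene in the annotation used for counts, which starts at 34197721. Bases before that annotated start of Psmb8 were not searched. The printed Psmb3 and Psmb5 stretches also run a little way into the annotated gene. That of Psmb3 ends at 97703433, past the annotated start at 97703399. That of Psmb5, on the minus strand, reaches 54617996, past the annotated start at 54618022. TGAGTCA, which can overlap an antioxidant response element, occurred in 2.38% against 5.17%, a paired ETS core (GGAA, any 2 bases and GGAA) in 7.14% against 3.52%, and the E-box CACGTG in 9.52% against 7.24%. These matches describe letters in a window and are not evidence of binding.

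**Figure D3:**
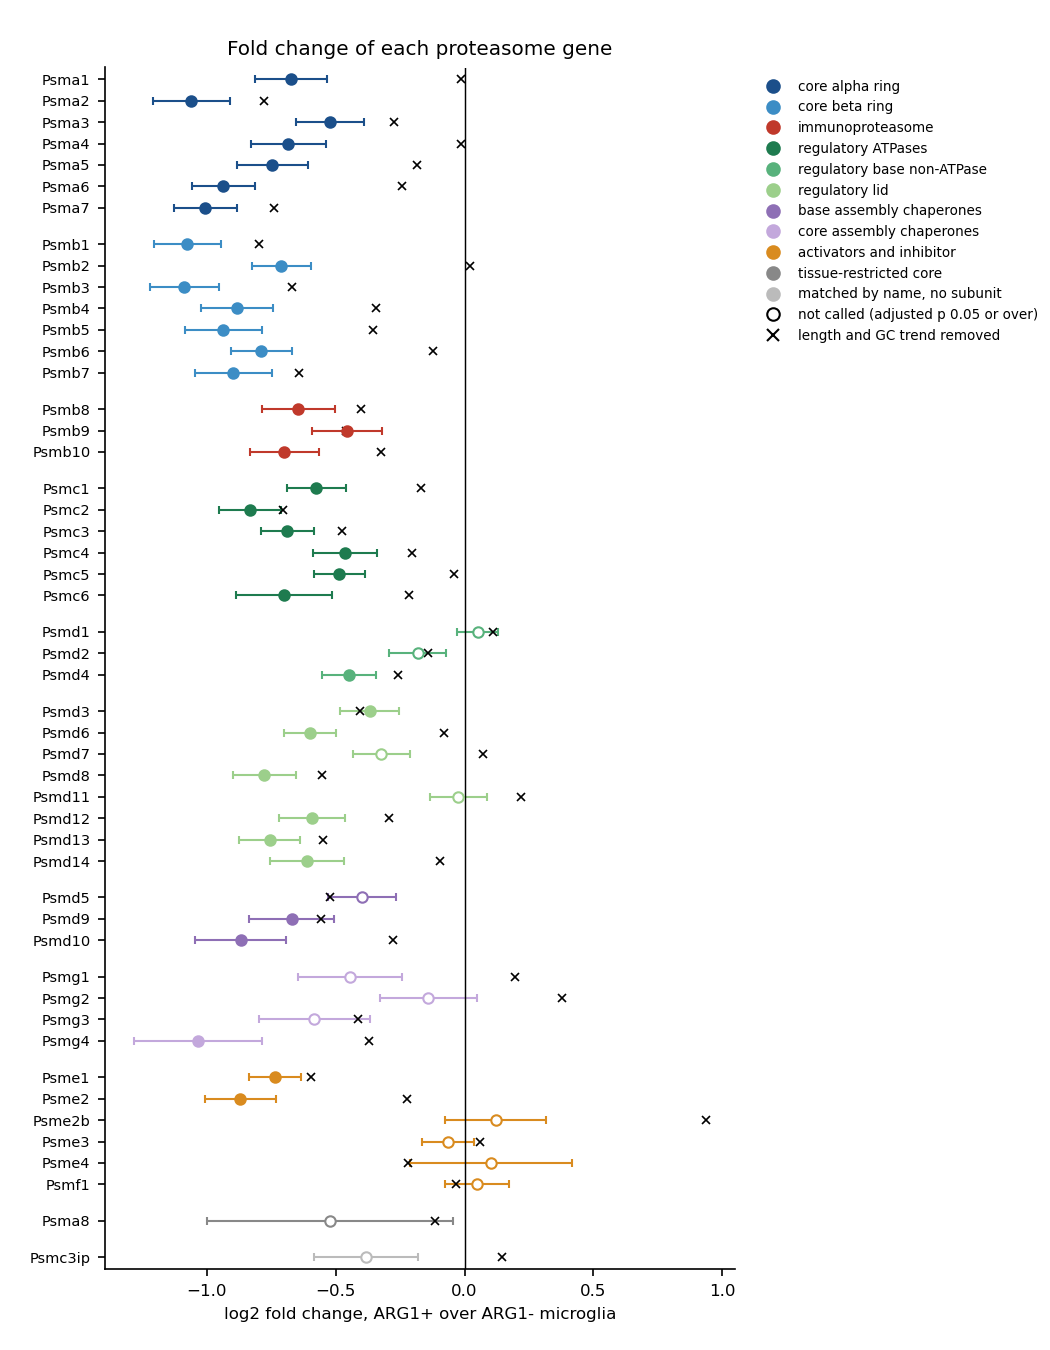
Fitted log2 fold change (ARG1+ over ARG1-, bars ± SE) of the 49 tested genes by subcomplex, filled where the adjusted p was under 0.05, with crosses for the value after the length and GC trend of well-counted protein-coding genes was removed. All 14 core genes, the 3 immunoproteasome genes and the 6 ATPases are filled and left of 0, most crosses lie nearer 0, and Psmd1, Psmd11, Psme3, Psme4, Psmf1 and Psme2b sit near 0.

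The 3 immunoproteasome genes fell with the standard ones, by a median of 0.64. Psmb8, which replaces Psmb5, had 150 to 239 CPM (median 204) in ARG1- and 105 to 170 CPM (median 123) in ARG1+ libraries, a log2 fold change of -0.64 (adjusted p = 0.00979, SE 0.14). Psmb9, which replaces Psmb6, had 35.3 to 60.2 CPM (median 48.7) and 30.8 to 40.9 CPM (median 34.4), a log2 fold change of -0.46 (adjusted p = 0.0392, SE 0.14). In both genes the populations overlapped. Psmb10, which replaces Psmb7, had 68.1 to 98.4 CPM (median 83.0) and 42.6 to 63.1 CPM (median 51.5), with no overlap and a log2 fold change of -0.70 (adjusted p = 0.00481, SE 0.13). Leaving out 1 library at a time, the call of Psmb9 held in 2 of 12 fits, and those of Psmb8 and Psmb10 in all 12. After the trend of well-counted genes was removed, Psmb8 (-0.40) and Psmb9 (-0.46) were lower and Psmb10 (-0.32) was not called.

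Per kilobase of the union of exons, as RPKM, Psmb8 was at 58.2 ± 8.80 (SD, n = 6) beside 65.7 ± 6.96 for Psmb5 in ARG1- microglia, and at 37.2 ± 7.001 beside 34.4 ± 7.05 in ARG1+ microglia. The Psmb8 to Psmb5 ratio of RPKM was 0.671 to 1.12 over the 6 ARG1- and 0.963 to 1.27 over the 6 ARG1+ libraries, so the populations overlapped. Psmb9 was far under Psmb6, with a ratio of 0.0953 to 0.145 in ARG1- and 0.138 to 0.188 in ARG1+ libraries, also overlapping. Psmb10 exceeded Psmb7 in every library, with ratios of 2.85 to 3.49 and 2.90 to 4.66. The mean of each ratio was higher in ARG1+ microglia (1.09 against 0.892, 0.160 against 0.125 and 3.63 against 3.13), and no test of the ratios was made. With the length and GC trend of well-counted genes removed, Psmb9 was at -0.46 beside -0.12 for Psmb6. Psmb8 was then at -0.40 beside -0.36 for Psmb5, and Psmb10 at -0.32 beside -0.64 for Psmb7. A higher ratio in ARG1+ microglia thus held in that fit for the Psmb10 pair alone. The order of Psmb8 and Psmb5 depended on the length used, which is 3381 bases of exon or 1907 bases in the longest transcript for Psmb8 and 899 bases by either measure for Psmb5. Per kilobase of the longest transcript Psmb8 was at 103 ± 15.6 (SD, n = 6) beside 65.7 for Psmb5 in ARG1- and at 66.0 ± 12.4 (SD, n = 6) beside 34.4 in ARG1+ microglia, with ratios of 1.19 to 1.99 and 1.71 to 2.25 that still overlapped. By that length the Psmb9 to Psmb6 ratio was 0.0624 to 0.0950 and 0.0901 to 0.123, and the Psmb10 to Psmb7 ratio was 3.08 to 3.78 and 3.14 to 5.04. Psmb8 and Psmb9 are neighbours on chromosome 17, at 34197721 to 34201454 and 34181987 to 34187764 (GRCm38). Exons of a gene on the opposite strand cover 14.7% of the exonic bases of Psmb8 (Gm20496), 5.79% of those of Psmb9 (Tap1) and 11.8% of those of Psmb7 (Nek6), and the libraries do not mark strand. The microRNA gene Mir686, on the same strand, covers 12.1% of the exonic bases of Psmb5.

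**Figure D4:**
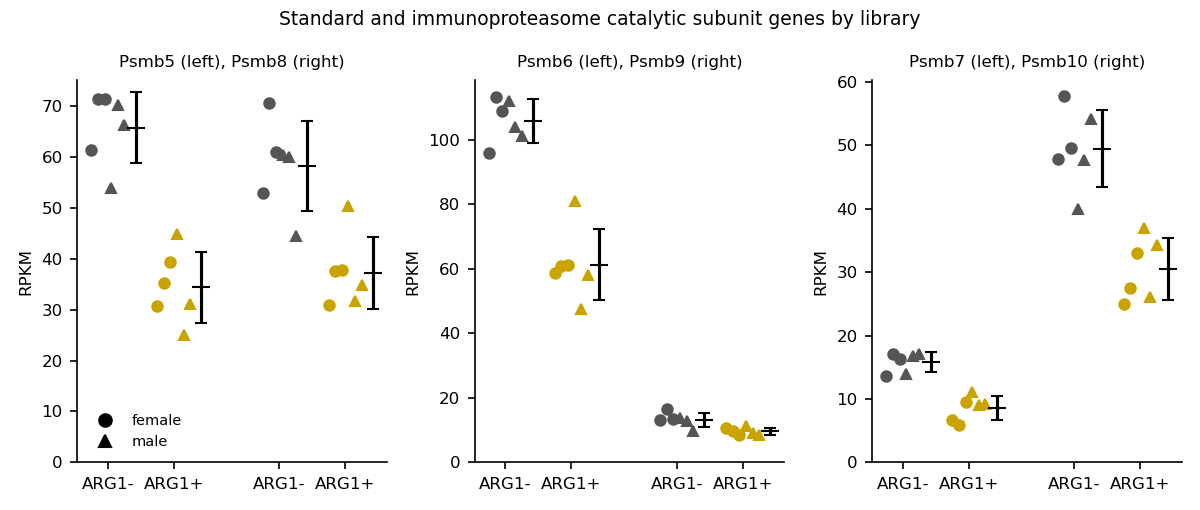
RPKM of the standard (left) and immunoproteasome (right) gene of each catalytic position in the 6 ARG1- and 6 ARG1+ libraries, circles for females and triangles for males, with the mean ± SD. Psmb5, Psmb6, Psmb7 and Psmb10 do not overlap between the populations, Psmb8 and Psmb9 do, and the high ARG1+ triangle in most panels is ARG1+ male replicate 11.

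The regulatory particle fell less evenly. All 6 ATPase genes, whose products form the unfolding ring of the base, were lower, with a median log2 fold change of -0.63. Psmc2 had 158 to 228 CPM (median 186) in ARG1- and 98.04 to 126 CPM (median 105) in ARG1+ libraries, a log2 fold change of -0.83 (adjusted p = 0.00108, SE 0.12). Psmc3, the ATPase gene with the most reads, had 229 to 298 CPM (median 258) and 140 to 197 CPM (median 160.5), a log2 fold change of -0.69 (adjusted p = 0.00126, SE 0.10). The libraries of Psmc1, Psmc2, Psmc3 and Psmc5 did not overlap, and those of Psmc4 and Psmc6 did. With 1 library left out, Psmc4 was called in 4 of 12 fits and Psmc6 in 5. After the trend of well-counted genes was removed, Psmc2 (-0.70) and Psmc3 (-0.48) stayed lower and the other 4 were not called.

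Of the 3 base genes that are no ATPase, only Psmd4 was lower. Psmd4, a receptor for ubiquitin chains, had 123 to 154 CPM (median 138) in ARG1- and 85.5 to 129 CPM (median 100.3) in ARG1+ libraries, overlapping by 1 ARG1+ library, with a log2 fold change of -0.45 (adjusted p = 0.0133, SE 0.10). Psmd2, a scaffold that docks ubiquitin shuttles, had 220 to 279 CPM (median 269) and 181 to 255 CPM (median 231), with a log2 fold change of -0.18 (adjusted p = 0.307, SE 0.11). Psmd1, the other scaffold, had 141 to 190 CPM (median 169) and 165 to 175 CPM (median 172), with a log2 fold change of 0.05 (adjusted p = 0.729, SE 0.08). The ARG1+ libraries of Psmd1 lay within the ARG1- range. With the trend of well-counted genes removed, Psmd4 was no longer called, at -0.26 (adjusted p = 0.0800).

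Of the 8 lid genes 6 were lower. Psmd13 had 105 to 135 CPM (median 109) in ARG1- and 55.8 to 82.1 CPM (median 67.4) in ARG1+ libraries, a log2 fold change of -0.76 (adjusted p = 0.00155, SE 0.12). Psmd8 had 114 to 166 CPM (median 156) and 74.4 to 111 CPM (median 83.2), a log2 fold change of -0.78 (adjusted p = 0.00178, SE 0.12). Both are structural lid subunits, and neither overlapped. Psmd3, the lid gene with the most reads, had 133 to 175 CPM (median 163) and 97.9 to 141 CPM (median 122), overlapping, with a log2 fold change of -0.37 (adjusted p = 0.046, SE 0.11) that was called in 3 of 12 fits with 1 library left out. Psmd14, the deubiquitinase of the lid, fell by 0.61, Psmd6 by 0.60 and Psmd12 by 0.59 on the log2 scale. Psmd7, the partner of Psmd14, was at -0.32 (adjusted p = 0.0669, SE 0.11), and Psmd11 was at -0.02 (adjusted p = 0.914, SE 0.11). With the trend of well-counted genes removed, Psmd3, Psmd8 and Psmd13 stayed lower, while Psmd14 (-0.095), Psmd6 (-0.080) and Psmd12 (-0.29) were no longer called.

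Over the whole regulatory particle 13 of 17 genes were lower, with a median log2 fold change of -0.57, beside 14 of 14 and -0.89 for the core. The median RPKM of the regulatory genes was 37.3 to 49.3 in ARG1- and 26.8 to 36.4 in ARG1+ libraries, and that of the core genes 34.0 to 50.5 and 19.9 to 27.7. Their ratio, regulatory over core, was 0.913 to 1.10 in ARG1- and 1.08 to 1.34 in ARG1+ libraries. Per kilobase of the longest transcript the ratio was 0.814 to 0.971 and 0.965 to 1.37. The ranges overlapped by either length, and the ratio was not tested. With the trend of well-counted genes removed, 5 of the 17 regulatory genes and 7 of the 14 core genes were lower, with medians of -0.20 and -0.31.

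Of the chaperones that build the base, Psmd10 (gankyrin) had 38.5 to 61.4 CPM (median 40.8) in ARG1- and 18.4 to 33.7 CPM (median 24.0) in ARG1+ libraries, with no overlap and a log2 fold change of -0.87 (adjusted p = 0.00647, SE 0.18). Psmd9 fell by 0.67 on the log2 scale, but 25.5% of its exonic bases lie in exons of a lincRNA gene on the opposite strand, Gm26745, and the libraries do not mark strand. Psmd5, the chaperone gene of this set with the most reads, had 69.3 to 106 CPM (median 88.1) and 52.5 to 81.7 CPM (median 66.4), with a log2 fold change of -0.40 (adjusted p = 0.0615, SE 0.13). With the trend of well-counted genes removed, Psmd10 was no longer called at -0.28 (adjusted p = 0.331), Psmd9 stayed lower at -0.56 and Psmd5 became lower at -0.52. Of the 4 chaperones that build the core, Psmg4 was lower. It had 7.26 to 10.1 CPM (median 7.99) in ARG1- and 2.79 to 5.78 CPM (median 3.95) in ARG1+ libraries, a log2 fold change of -1.03 (adjusted p = 0.0152, SE 0.25). Psmg3, the most abundant of them in reads, had 22.8 to 38.1 CPM (median 31.6) and 8.56 to 24.9 CPM (median 21.6), with a log2 fold change of -0.58 (adjusted p = 0.089, SE 0.22). Psmg1 was at -0.45 and Psmg2 at -0.14, neither called. Psmg4 was no longer called with the trend of well-counted genes removed, at -0.37 (adjusted p = 0.293).

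Of the activator genes Psme1 and Psme2 were lower and the others were not called. The longest transcript has 1986 bases in Psme1 and 962 in Psme2. Among the activator genes not called it has 2664 bases in Psme3, 6491 in Psme4 and 837 in Psme2b. The part of transcript length or of interferon in this split was not tested. Psme1 and Psme2 encode the paired subunits of the interferon-induced activator PA28 and sit close together on chromosome 14, at 55578123 to 55581529 and 55587441 to 55591113 (GRCm38). Psme1 had 125 to 161 CPM (median 149) in ARG1- and 76.2 to 113 CPM (median 83.9) in ARG1+ libraries, a log2 fold change of -0.74 (adjusted p = 0.000988, SE 0.10). Psme2 had 95.5 to 141 CPM (median 119) and 49.7 to 79.0 CPM (median 62.6), a log2 fold change of -0.87 (adjusted p = 0.00174, SE 0.14). Neither overlapped between populations. Psme2b, an intronless copy of Psme2 with which it may share reads, had 8.58 to 13.5 CPM in ARG1- and 8.11 to 15.002 CPM in ARG1+ libraries, with a log2 fold change of 0.12 (adjusted p = 0.732, SE 0.20). When the trend of well-counted genes was removed, Psme1 stayed lower at -0.60 (adjusted p = 0.00125), Psme2 was no longer called at -0.22 (adjusted p = 0.101), and Psme2b became higher at 0.94 (adjusted p = 0.0174).

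The other activators and Psmf1 were not called. Psme3, the nuclear activator, was at 98.5 CPM ± 8.22 (SD, n = 6) in ARG1- and 95.3 ± 17.2 (SD, n = 6) in ARG1+ libraries, a log2 fold change of -0.06 (adjusted p = 0.731, SE 0.10). Psme4 (PA200), another nuclear activator, was at 0.10 (adjusted p = 0.868, SE 0.31), and Psmf1, which encodes the binding protein PI31, at 0.05 (adjusted p = 0.837, SE 0.12). The spread of Psme4 was wide, from 10.97 to 44.9 CPM within the ARG1- libraries. Psma8, the alpha subunit of the testis, had 2.46 to 15.3 CPM (median 9.94) in ARG1- and 2.73 to 9.16 CPM (median 6.28) in ARG1+ libraries, at -0.52 (adjusted p = 0.516, SE 0.48). Psmc3ip was at 6.604 to 14.4 CPM (median 8.72) and 5.81 to 9.25 CPM (median 6.65), at -0.38 (adjusted p = 0.239, SE 0.20).

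The contrast was then taken within each sex. In females 26 of the 49 genes were lower and 0 higher, against 4.16% and 2.6% of all genes, and in males 17 were lower and 0 higher, against 3.1% and 2.03% of all genes. Both sexes gave a fitted value below 0 for 43 of the 49 genes, and for 5468 of all 16908 genes tested. In the core 11 of 14 genes were lower in females and 9 in males, and 2 of the 3 immunoproteasome genes were lower in females and 0 in males. Of the 49 tests of a difference between the sexes in the size of the change, 0 passed the adjusted threshold and 2 had an unadjusted p under 0.05, where 9.32% of all genes did. These were Psmd3 (-0.62 in females, -0.11 in males) and Psmd9 (-0.999 in females, -0.34 in males). Across the 49 genes the female and male log2 fold changes had a Pearson r of 0.73 and a Spearman rho of 0.69, a description across genes measured in the same libraries.

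**Figure D5:**
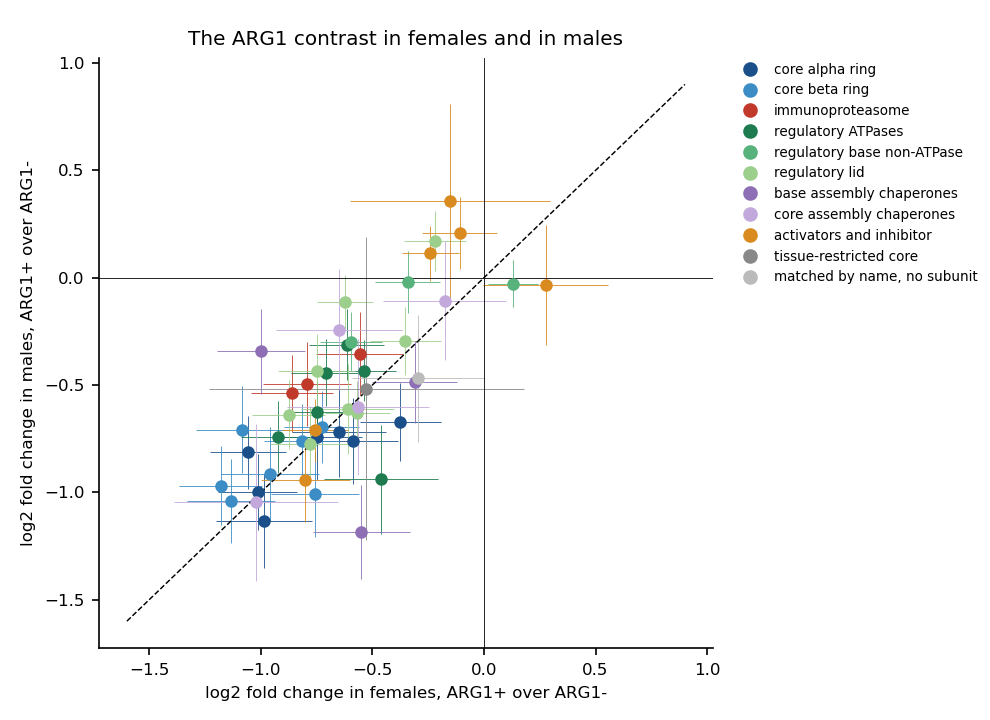
Log2 fold change (ARG1+ over ARG1-, bars ± SE) in males against that in females for the 49 tested genes, coloured by subcomplex, with a dashed line of equal change. Most points lie in the lower left quadrant, below 0 in both sexes, around the line, and none of the 49 differences between the sexes passed the adjusted threshold.

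When the 6 libraries of each sex were fitted alone, 21 proteasome genes were lower in females (3.39% of all genes). In males 0 were lower, and only 1 gene of all was called. Between females and males of the same population 0 proteasome genes passed the adjusted threshold in edgeR's test (0.0946% of all genes in ARG1- and 0.0355% in ARG1+ microglia). At an unadjusted p under 0.05 there was 1 gene in ARG1- microglia (Psmf1) and 2 in ARG1+ microglia (Psme3 and Psmd3), against 10% and 3.12% of all genes. The libraries numbered 13 to 16 in the labels hold 1 library of each group. Within them the median log2 difference over the 49 genes was -0.71, and within the libraries numbered 1 to 12 it was -0.58, with 45 and 46 genes below 0. The share of all genes below 0 within these sets of libraries was not computed.

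Libraries of the same population differed in level over most of the complex. Relative to each gene's mean over all 12 libraries, the median log2 deviation of the 49 genes was 0.17 to 0.50 in ARG1- libraries and -0.51 to -0.06 in ARG1+ libraries. ARG1+ male replicate 11 was nearest to the ARG1- libraries, and ARG1+ male replicate 12 was farthest. With ARG1+ male replicate 11 left out 37 proteasome genes were lower (8.47% of all genes). With ARG1+ male replicate 16 left out 28 were lower (5.83% of all genes).

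Of 5 proteasome proteins whose genes carry other names, 2 were lower, where 9.42% of all genes were. Pomp, the maturation factor of the core, fell by 0.88 on the log2 scale (adjusted p = 0.00236) and Sem1, the small lid subunit, by 0.62 (adjusted p = 0.0423). The ubiquitin receptor Adrm1 and the deubiquitinases Uchl5 and Usp14 were not called. Of 10 regulators tested 2 were lower (9.42% of all genes), and Fbxo7, which binds PI31, had the smallest p (-0.57, adjusted p = 0.0103). The other was Ngly1 (-0.58, adjusted p = 0.0126). Nfe2l1, the transcription factor known to induce proteasome genes, was at 0.57 (adjusted p = 0.108, SE 0.22) and Nfe2l2 at -0.14 (adjusted p = 0.411, SE 0.10), neither called.

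Of 13 genes of ubiquitin itself and of the shuttles that bring tagged proteins to the proteasome, 2 were lower and 1 was higher. Over all genes 9.42% were lower and 6.44% higher, the shares to set beside each count of calls in this paragraph. Ubb, a ubiquitin precursor, fell by 0.84 on the log2 scale (adjusted p = 0.000397), and Ubqln4, a shuttle, was at 0.73 (adjusted p = 0.0337). Of 8 genes of antigen processing 0 were called by edgeR, with 1 at an unadjusted p under 0.05 (B2m, at -0.56, adjusted p = 0.0926), and Tap1, next to Psmb9, was at 0.08 (adjusted p = 0.801). Of 9 genes through which interferon induces the immunoproteasome 1 was lower, the receptor subunit Ifngr2 (-0.31, adjusted p = 0.0267), while Irf1 was at -0.27 (adjusted p = 0.235). Of 10 genes known to keep introns in nuclear transcripts 5 were higher and 0 lower, with Rsrp1 at 1.32 and Ccnl2 at 1.22, and their summed level was 1841 to 3458 CPM in ARG1- and 4268 to 5927 CPM in ARG1+ libraries. The part of nuclear transcripts in the proteasome results was not tested.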

How the data were processed

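Microglia were sorted, amplified with SMART-Seq v4, made into Nextera XT libraries and sequenced as single-end reads. The deposited values are whole-number read counts per Ensembl gene, which the authors made with STAR 2.6.1d on GRCm38 and featureCounts 1.5.1, per the labels and the study's methods, with bcl2fastq 2.20.0 before and DESeq2 1.28.1 after; the counting strand is not given in the sources used here. Groups and sexes came from the sample labels.

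Gene names, coordinates and lengths came from GENCODE M21 (GRCm38), which matched 55227 of 55487 identifiers; the other 260 held 0.0333% of counts. Counts were filtered with filterByExpr on the 4 groups, normalized by TMM and tested with edgeR 4.0.16 (R 4.3.3) glmQLFit and glmQLFTest over all 12 libraries, with sex and ARG1 status as terms, or the 4 group means for contrasts within sex, between sexes and for the interaction. P-values were adjusted over the 16908 genes tested, with a threshold of 0.05, and the SE is the fold change over the root of F. CPM used TMM-normalized totals, and RPKM the union of exons. The script was tested on simulated data. The labels do not say which ARG1+ and ARG1- libraries share a pool of mice, so the libraries were treated as independent and p-values measure the spread between them. Replicates of a group differed far beyond sampling noise (chi-square per degree of freedom 40.7 to 125).

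The alternatives replaced TMM by upper-quartile factors or by DESeq2 size factors. Others used no filter, at least 10 counts in every library, a term for libraries numbered 13 to 16, or ARG1 status alone. Further ones were DESeq2 1.42.0, removal of each library's trend on longest transcript length and GC content (mgcv 1.9.3), 1 sex alone, and each library left out. By library, values are given for the smallest-p and the most abundant gene of each subcomplex, the catalytic genes and the 12 smallest p; Psmb4, next after them, was added after its values were seen. The genes, lists and tests were chosen with earlier results of these data known. Paaf1 was not analysed here, and some genes counted in the pathway lists are not reported by name.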

Additional observations from a re-analysis of the deposited data

Results flagged for a closer look

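In 114 groups of 6 libraries (each tested gene, the library totals, the summed levels and the catalytic ratios, in each population), 8 held a library far from the others by Dixon's criterion, where chance alone would give about 5.7. ARG1+ male replicate 11 was the high library in 5 of them. It had 113 CPM of Psme1 (others 76.2 to 88.1), 170 CPM of Psmb8 (others 105 to 128), 116 CPM of Psmc4 (others 79.2 to 88.2), 103 CPM of Psmd6 (others 90.1 to 92.9) and 274 CPM summed over the 3 immunoproteasome genes (others 185 to 216). ARG1+ female replicate 7 was the low library for Psmg3, at 8.56 CPM (others 19.9 to 24.9), and for Psmd11, at 71.3 CPM (others 91.4 to 103). ARG1- female replicate 1 had 59.3 CPM of Psmc6 (others 101 to 124). The calls of Psme1, Psmb8 and Psmd6 held in all 12 fits with 1 library left out, that of Psmc4 in 4 and that of Psmc6 in 5.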

How the results depend on the processing

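The number of proteasome genes lower was 31 to 36 under other scalings, filters, model terms and DESeq2's Wald test. The share of all genes lower then ran from 3.7% (no filter, 29671 genes tested) to 13.5% (at least 10 counts in every library, 11633 genes tested). With the length and GC trend of all genes removed, 34 proteasome genes were lower (9.08% of all genes). With 1 library left out, 28 to 37 were lower (5.83% to 8.73% of all genes). With the trend of well-counted protein-coding genes removed, 17 were lower and 1 was higher (5.87% and 5.39% of all genes). The medians were then -0.50 (all genes' trend) and -0.24. Removal of all genes' trend still left protein-coding genes of up to 1000 bases at a median log2 fold change of -0.47. Over all genes 1593 were lower and 1089 higher; this became 991 lower with that second trend, 1048 to 1553 lower and 690 to 1116 higher with 1 library left out (1048 without ARG1+ male replicate 16, 690 without ARG1+ male replicate 12), and 2141 higher with the Wald test, which made 47.8% of calls lower instead of 59.4%. Males fitted alone gave 0 genes lower, against 17 in the shared fit. Genes that changed sign had not been called in the reported fit, except Psmb2 (0.021 with the second trend). They were, with all genes' trend removed, Psmd1 (-0.0026), Psmf1 (-0.052), Psme4 (-0.18) and Psmg2 (0.032), and with the second trend Psmf1 (-0.034), Psmd7 (0.072), Psme4 (-0.22), Psmd11 (0.22), Psmc3ip (0.14), Psme3 (0.0605), Psmg1 (0.19) and Psmg2 (0.38). Psmd11 was also 0.013 with DESeq2 size factors, 0.013 with at least 10 counts in every library, 0.0082 with no filter, and 0.0195 with the Wald test. With 1 library left out Psmd11 ran from -0.0504 to 0.077, Psme4 from -0.089 to 0.36 and Psme3 from -0.11 to 0.014. The cause was not tested. No paired analysis was possible because the groups share no replicate number in the labels, although ARG1+ and ARG1- libraries may come from the same litters; the fits treat the 12 libraries as independent. With 1 library left out, 28 of the 35 lower genes were called in all 12 fits; the others were Psmb9 (2), Psmd3 (3), Psmc4 (4), Psmc6 (5), Psma3 (8), Psmd9 (10) and Psmg4 (11).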
